A study of Mus musculus with 2 samples.

Results

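The genes described here are 10 members of the transforming growth factor beta (TGF-beta) signaling pathway, Tgfb1, Tgfbr1, Tgfbr2, Smad2, Smad3, Smad4, Smad7, Smurf2, Ski and Skil. They were found by gene name among the annotated transcripts of 2 global run-on sequencing (GRO-seq) libraries of wild-type mouse bone marrow-derived macrophages (BMDMs). GRO-seq lets engaged RNA polymerases extend their RNA in isolated nuclei with a bromine-labeled nucleotide, so that RNA in the course of synthesis is captured. All 10 members carried at least 1 transcript in the control library and 9 did after IL-4, out of 11054 genes named in at least 1 library and 8879 named in both. Marrow came from mice of 8 to 12 weeks on a C57BL/6 background, and both cultures were differentiated for 6 days in L929 supernatant, which supplies the macrophage growth factor M-CSF. The control library came from cells without cytokine and the IL-4 library from cells given interleukin-4 at 20 ng/ml for 1 hr. Run-on reactions were made in duplicate and pooled into 1 library per condition, so there was no replicate (n = 1 per condition), the spread between cultures is unknown, and no difference below was tested.

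TGF-beta binds a pair of serine/threonine kinase receptors, TGFBR2 and TGFBR1. The active TGFBR1 phosphorylates the receptor-regulated SMADs, SMAD2 and SMAD3, which join SMAD4 and enter the nucleus to regulate transcription. SMAD7 and the ubiquitin ligase SMURF2 act against the pathway at the receptor, and SKI and SKIL (SnoN) are co-repressors that bind SMADs on DNA. In macrophages TGF-beta is known mainly for restraining inflammatory gene expression and for its part in tissue repair.

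The measurement was a score given by the transcript caller to each called transcript, a strand-specific stretch of continuous run-on signal. It was deposited with 1 decimal, so that a score is known only to within 0.05, and its scaling is not stated. The value of a gene below is the top score found for its name in that library. The control library held 43122 transcripts and the IL-4 library 51365, with a median length of 227 and 312 bp and a median score of 0.3 and 0.2. The median log2 ratio of gene values, IL-4 over control, was -0.38 over all genes, and ratios were centered on it. A second measure, score multiplied by length and summed over the same-strand transcripts inside the annotated gene, is given as printed, since its total was close in both libraries (14172016 without and 14123421 with IL-4) and its median ratio over 7196 genes was 1.08.

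The tissue label was checked against marker genes. All 10 macrophage markers had same-strand transcripts in both libraries, whereas none of the 6 fibroblast, 5 T cell, 5 B cell and 5 dendritic cell markers had one. Of 6 neutrophil markers 3 had one in each library, with a summed score times length of 1969 in control and 10035 after IL-4, nearly all of it at Csf3r, while Ly6g and Elane had none. The part of such cells in the results was not tested. By name alone, the T cell marker Cd8a had 4 transcripts in each library and Cd3d 1 in control. The B cell marker Cd79a had 1 in control and 2 after IL-4 by name. None of these lay inside the gene on its strand. Of 10 genes of the early IL-4 response, 2 had same-strand transcripts before treatment and 7 after it. In bulk nuclei, fewer cells of a type and less RNA per cell cannot be told apart.

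The promoters of 4 members are shown because these genes carried the contrasts described below: a start region that was transcribed in both libraries (Tgfb1, Tgfbr2), a gene whose transcripts were called only in control (Smad3) and a gene with more nascent transcription after IL-4 (Ski). Each line gives the bases upstream of the annotated start, from 5′ to 3′ on the strand of the gene, from RefSeq (GRCm38.p6, the build of the files). The stretches are chr7:25686752-25687001 (plus strand) for Tgfb1, chr9:116175364-116175613 (minus) for Tgfbr2, chr9:63757995-63758244 (minus) for Smad3 and chr4:155222593-155222785 (minus) for Ski. Capitals mark the GC box GGGCGG and the SMAD box CAGAC on either strand.
Tgfb1: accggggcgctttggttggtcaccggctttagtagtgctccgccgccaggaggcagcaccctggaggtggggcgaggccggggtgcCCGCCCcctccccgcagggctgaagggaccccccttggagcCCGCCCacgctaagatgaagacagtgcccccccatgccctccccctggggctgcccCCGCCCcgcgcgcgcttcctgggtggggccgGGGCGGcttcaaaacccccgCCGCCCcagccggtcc
Tgfbr2: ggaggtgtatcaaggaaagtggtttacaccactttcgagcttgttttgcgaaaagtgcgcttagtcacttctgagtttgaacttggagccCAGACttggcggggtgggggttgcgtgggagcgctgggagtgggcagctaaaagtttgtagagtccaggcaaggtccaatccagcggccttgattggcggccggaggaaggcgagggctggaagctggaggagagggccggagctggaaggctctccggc
Smad3: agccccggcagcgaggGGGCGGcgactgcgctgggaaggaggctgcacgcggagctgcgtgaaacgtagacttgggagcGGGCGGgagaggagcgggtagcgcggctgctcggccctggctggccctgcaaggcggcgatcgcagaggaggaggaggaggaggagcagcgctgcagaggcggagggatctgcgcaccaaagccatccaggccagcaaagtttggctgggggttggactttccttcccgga
Ski: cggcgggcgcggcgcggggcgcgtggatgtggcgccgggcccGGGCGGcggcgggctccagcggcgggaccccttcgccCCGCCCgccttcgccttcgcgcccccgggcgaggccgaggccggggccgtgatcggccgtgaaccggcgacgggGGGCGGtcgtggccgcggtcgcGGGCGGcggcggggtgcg

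RefSeq promoter windows of 300 bases, 250 before and 50 after the start, were read for 6 members (Tgfb1, Tgfbr1 with 2 windows, Tgfbr2, Smad3, Smurf2 and Ski). Windows on chromosome 18, where Smad2, Smad4 and Smad7 lie, were left out, and Skil had no window. None of these windows held TTCNNNNGAA, the palindrome with the spacing preferred by STAT6, which 6.95% of 32851 mouse promoter windows held, and none held the SMAD palindrome GTCTAGAC, which 0.213% held. The short SMAD box CAGAC, present in 49.6% of all windows on either strand, had 2 matches in the Smurf2 window and 1 each in the Tgfbr2 window and the inner Tgfbr1 window. The GC box GGGCGG, present in 35.7% of windows, had 6 matches each in the Tgfb1 and Ski windows, 2 each in Smad3 and the outer Tgfbr1 window, 9 in Smurf2 and none in Tgfbr2. Matches of letters are a description of these windows and not of factor binding. Transcripts overlapped the Tgfb1 window on the gene's strand in both libraries, the Ski window in control by its last base, and the Smad3 window in neither.

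The comparison asked how nascent transcription of the pathway's genes differed 1 hr after IL-4. By the highest score, 1 of the 9 members with a value in both libraries (Smad4) was at least 2-fold lower after centering, against 8.62% of all genes, and none was at least 2-fold higher, against 8.06%. The remaining 8 differed by less than 2-fold. The median centered log2 ratio of the 9 members was -0.31, within the quartiles of all genes (-0.51 and 0.38, SD 0.78, n = 8879). As a list, the members lay near the background by this measure. By summed score times length, 1 of 9 members (Ski) was at least 2-fold higher, against 19.1% of genes, and 3 (Smad4, Tgfbr1 and Skil) were at least 2-fold lower, against 14.6%. The median ratio of the members was 1.12 on this measure. The length covered by same-strand transcripts inside the gene was longer after IL-4 in general. Its median ratio was 1.47 for the members and 1.41 for all genes.

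**Figure D1:**
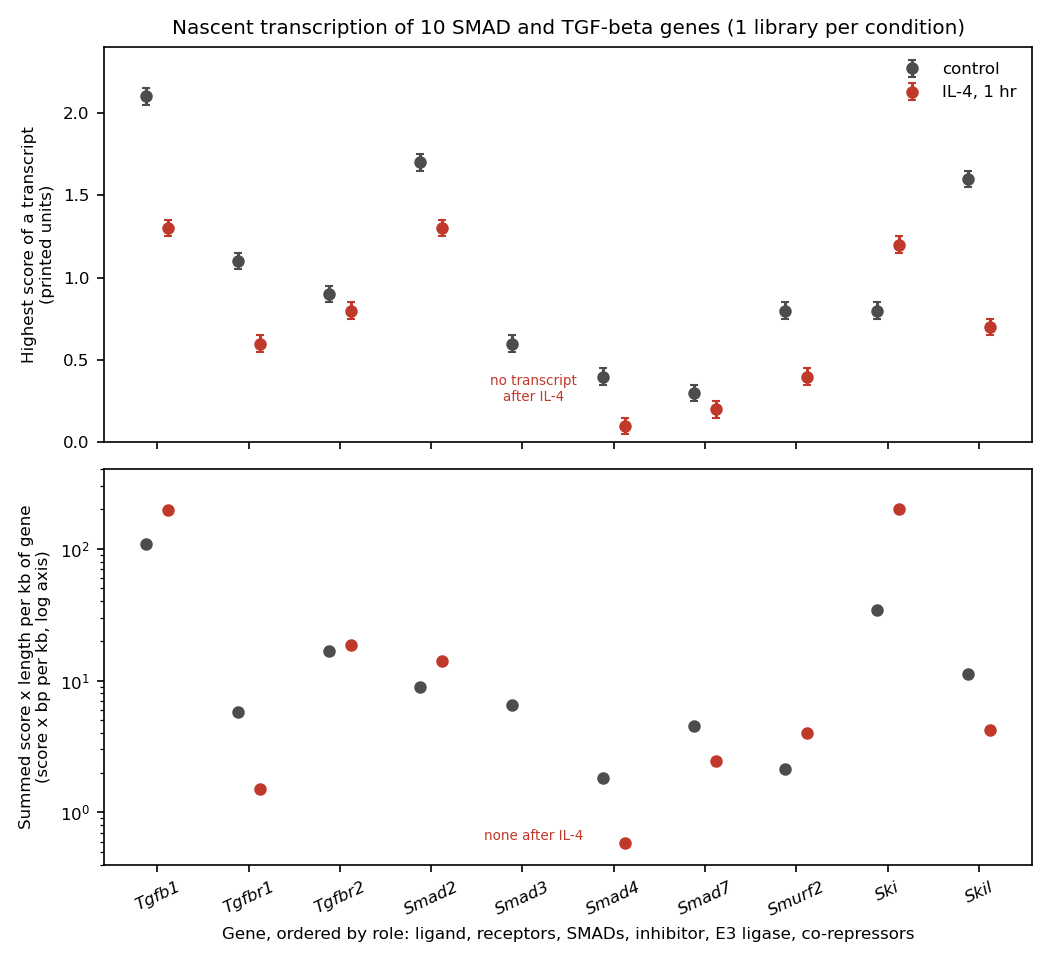
Values of the 10 members in the control library (gray) and after 1 hr of IL-4 (red), 1 library each. The upper panel plots the highest transcript score with bars of 0.05 for the rounding of the deposited score, and the lower panel the summed score times length per kb of gene on a log axis. Smad3 has no point after IL-4, and Ski is the member with the widest upward gap in the lower panel.

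Per kb of gene, the levels of summed score times length in control ran from 109 for Tgfb1 and 34.2 for Ski, through 16.7 for Tgfbr2 and 11.3 for Skil, to 2.13 for Smurf2 and 1.81 for Smad4. After IL-4, Ski (202) and Tgfb1 (198) had nearly equal levels at the head of the order and Tgfbr2 followed at 18.6. Smad4 stood last at 0.59 among the members with a transcript. With 1 library each, neighbors in this order cannot be separated by a spread.

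Tgfb1 encodes the ligand and lies at chromosome 7, 25687002 to 25705077, plus strand (ENSMUSG00000002603.15). Its highest score was 2.1 in control and 1.3 after IL-4, a centered log2 ratio of -0.31 with a range of -0.40 to -0.22 allowed by rounding. The summed score times length had the opposite direction, at 1975 without and 3578 with IL-4, or 1.81-fold. The measures thus gave opposite directions at Tgfb1.

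The difference at Tgfb1 lay at its start. In control the first 2.5 kb held 3 separate same-strand transcripts covering 813 bp, of which the one at the start was 367 bp long with a score of 1.8. After IL-4 the same 2.5 kb held 1 transcript of 2093 bp with a score of 1.3, which began 1 bp upstream of the annotated start. The sum over this stretch was 788 in control and 2721 after IL-4. Further into the gene the sums were lower after IL-4, 520 against 236 between 2.5 and 10 kb, and 667 against 620 beyond 10 kb (control first). The control value of 2.1 itself came from a 96-bp transcript in intron 3 that was also called after IL-4 at 95 bp with a score of 1.1, where the annotation names a simple repeat.

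The receptors differed in pattern. Tgfbr2, the ligand-binding type II receptor (chromosome 9, 116084293 to 116175360, minus strand), carried 25 named transcripts in each library, with a highest score of 0.9 in control and 0.8 after IL-4. Its centered log2 ratio was 0.21 (rounding range 0.038 to 0.38). Same-strand transcripts inside the gene numbered 24 in both libraries and covered 4888 and 8348 bp, and their summed score times length was 1519 and 1696, a ratio of 1.12 close to the median of all genes. In each library 16 of the 25 transcripts overlapped one of the other library on the same strand. The same share over all transcripts was not computed, here or for the members below. A promoter antisense transcript of score 0.1 was called in control and none after IL-4.

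Tgfbr1, the type I receptor kinase (chromosome 4, 47353222 to 47414931, plus strand), had 10 named transcripts in control and 4 after IL-4. Its highest score was 1.1 and 0.6, a centered log2 ratio of -0.50 (rounding range -0.69 to -0.31). Inside the gene, 8 same-strand transcripts covering 902 bp in control compared with 2 covering 321 bp after IL-4, and the sum was 356 and 93.0, or 0.261 times the control. The 2 that remained, in intron 1, both lay at places also called in control and both were annotated as repeats. The 6 without a counterpart after IL-4 included a 47-bp transcript of score 1.0 in intron 4 and one in the 3′ UTR. The promoter antisense transcripts numbered 2 in each library, with printed scores of 0.3 and 0.4 in control and 0.1 and 0.3 after IL-4. The difference in number at Tgfbr1 was therefore on the sense strand, while the printed antisense scores were also lower after IL-4.

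Among the SMADs, Smad3 stood out by the absence of any call after IL-4. Smad3 encodes a receptor-regulated SMAD that binds DNA directly and lies at chromosome 9, 63646767 to 63757994, minus strand (ENSMUSG00000032402.12). In control 12 transcripts carried its name and after IL-4 none did. Of the 12, 11 lay on the strand of the gene, all in intron 1 and between 4.62 and 60.4 kb from the start, with scores of 0.2 to 0.6 and lengths of 53 to 546 bp. Together they covered 2589 bp, 2.33% of the gene, with a summed score times length of 726. The other was a promoter antisense transcript of 376 bp and score 0.2. No control transcript of Smad3 overlapped an IL-4 transcript on the same strand.

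A loss of every named transcript was also seen elsewhere, as 948 of 9827 genes named in control (9.65%) had none after IL-4. Among the 1017 genes with at least 10 named transcripts in control, Smad3 was 1 of 7 (0.688%) with none after IL-4. The other 6, named here because the count is small, were Nxph4, Rnf150, Nfatc2, Dapk1, Fam214a and Slc7a7. This filter used the control library alone, where Smad3 had its transcripts, and the reverse count was not computed. The share of 0.688% is thus a description and does not measure how unusual Smad3 was among genes of like signal. Of the 11 Smad3 sense transcripts 5 were annotated as repeats or low-complexity sequence, and the highest score, 0.6, was just above the median gene value of the control library, 0.5. Aagab, the neighbor on the plus strand, also had fewer same-strand transcripts after IL-4 (13 in control and 6 after IL-4, with sums of 1163 and 425). A gene without a called transcript had a signal below what the caller detected at a depth that is unknown here, and cannot be called silent.

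**Figure D2:**
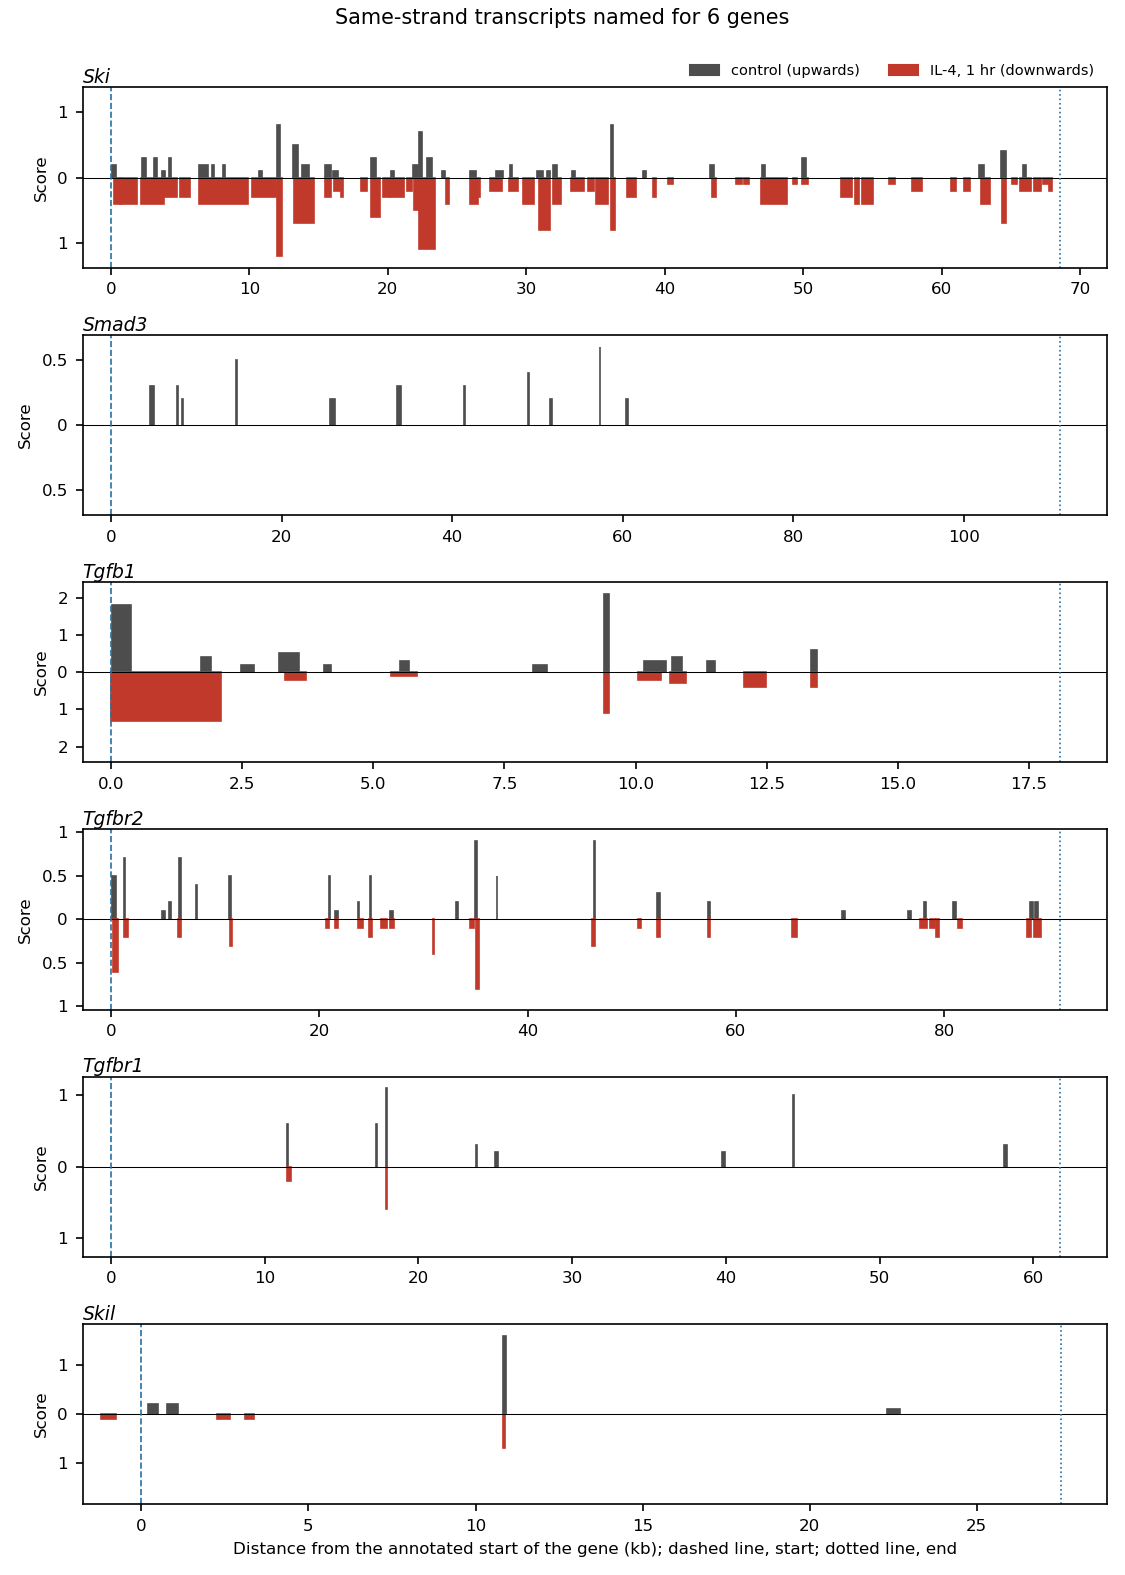
Same-strand transcripts named for 6 members, plotted by distance from the annotated gene start (kb) with the score as bar height and the transcript length as bar width, control upwards (gray) and IL-4 downwards (red). Ski has longer transcripts along the whole gene after IL-4, and more of them only beyond 20 kb from the start. Smad3 has 11 in control and none after IL-4, and Tgfb1 has 1 long transcript at its start after IL-4.

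The other receptor-regulated SMAD of the set did not share this pattern. Smad2 (chromosome 18, 76241580 to 76310963, plus strand) carried 7 named transcripts in control and 14 after IL-4, and its highest score was 1.7 and 1.3. The centered log2 ratio was -0.0085 (rounding range -0.11 to 0.09), at the middle of all genes. Inside the gene 5 same-strand transcripts in control and 10 after IL-4 covered 1409 and 3442 bp, and their sum was 616 and 970, or 1.57-fold. The highest score came from the same place in both libraries, a repeat in intron 2 at 31.6 kb from the start.

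Smad4, the common partner of the regulated SMADs (chromosome 18, 73639009 to 73703780, minus strand), was the member with the lowest centered log2 ratio. Its highest score was 0.4 in control and 0.1 after IL-4, a ratio of -1.62, the 2.08th percentile of all genes. Rounding alone allowed -2.79 to -0.84, so that a difference under 2-fold was within the printed precision. The gene had 3 transcripts in control, all in intron 1, and 1 after IL-4, a 379-bp transcript in intron 4 annotated as an LTR repeat. None of the 4 overlapped one of the other library, and the sums were 117 and 37.9.

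The inhibitors had few transcripts. Smad7, the inhibitory SMAD (chromosome 18, 75367529 to 75395935, plus strand), had a highest score of 0.3 in control and 0.2 after IL-4, with a centered log2 ratio of -0.21 and a rounding range of -0.84 to 0.38 that includes 0. In each library 1 same-strand transcript lay inside the gene, at its 5′ UTR, with a score of 0.2 in both and a length of 640 bp without IL-4 and 349 bp with it. The summed score times length was accordingly 128 and 69.8, or 0.545 times the control. A promoter transcript upstream of the start, called at the same place in both libraries, had a score of 0.3 and 0.1. The printed values of Smad7 were thus lower after IL-4 on both measures, by less than 2-fold. For the score, rounding does not settle the direction.

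Smurf2, a HECT-type ubiquitin ligase (chromosome 11, 106820066 to 106920715, minus strand), had a highest score of 0.8 in control and 0.4 after IL-4, a centered log2 ratio of -0.62 (rounding range -0.90 to -0.36). The number of same-strand transcripts inside the gene was 4 in control and 8 after IL-4, covering 659 and 2040 bp, and the sum was 215 and 402, or 1.87-fold. The transcript at its start was alike in both libraries, 372 and 363 bp long with a score of 0.2 in each, as was the promoter antisense transcript (197 and 194 bp, score 0.2). The directions of score and sum were again opposite, and the highest score in control came from transcripts of 65 and 73 bp. The annotated gene Gm27322 overlaps Smurf2 on the same strand, so reads of the pair cannot be separated where they overlap.

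The co-repressors SKI and SKIL are close relatives, and their genes differed in direction. Ski (chromosome 4, 155154075 to 155222592, minus strand, ENSMUSG00000029050.15) carried 36 named transcripts in control and 57 after IL-4. Its highest score was 0.8 in control and 1.2 after IL-4, a centered log2 ratio of 0.96 with a rounding range of 0.81 to 1.12, at the 89.7th percentile of all genes. Same-strand transcripts inside the gene numbered 35 and 54 and covered 10069 and 36750 bp, or 14.7% of the gene in control and 53.6% after IL-4. The summed score times length was 2345 in control and 13840 after IL-4, a ratio of 5.90 that 180 of 7196 genes reached or passed (Ski included). By this sum 327 genes were at least as high as Ski in control and 40 after IL-4.

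The higher signal at Ski ran along the whole gene. Within 5 kb of the start the sum was 272 in control and 1845 after IL-4, from 5 transcripts in each library that covered 1144 and 5025 bp. Between 5 and 20 kb it was 913 and 4308, and between 20 and 40 kb 752 and 4794. Beyond 40 kb, which includes the last exons, 6 transcripts with a sum of 409 in control compared with 21 transcripts and a sum of 2896 after IL-4. The longest transcript measured 669 bp without and 3485 bp with IL-4. Of the 36 control transcripts 34 overlapped one of the IL-4 library, and 30 of the 57 after IL-4 had no counterpart in control. The IL-4 library held more transcripts in all (51365 against 43122), and the share without a counterpart over all transcripts was not computed. Repeats were a small share of the same-strand transcripts inside the gene (5 of 35 and 4 of 54).

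Skil (chromosome 3, 31095058 to 31122577, plus strand) had 5 named transcripts in each library and a highest score of 1.6 in control and 0.7 after IL-4. Its centered log2 ratio was -0.81 (rounding range -0.97 to -0.67), and its summed score times length was 311 and 116, or 0.371 times the control. The highest score came in both libraries from a simple repeat in intron 4, called at the same place with lengths of 93 and 70 bp. Near the start, control had 2 same-strand transcripts of score 0.2 that began within 0.78 kb, and after IL-4 there were 2 of score 0.1 in exon 2 and another of score 0.1 upstream of the start, at the promoter.

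**Figure D3:**
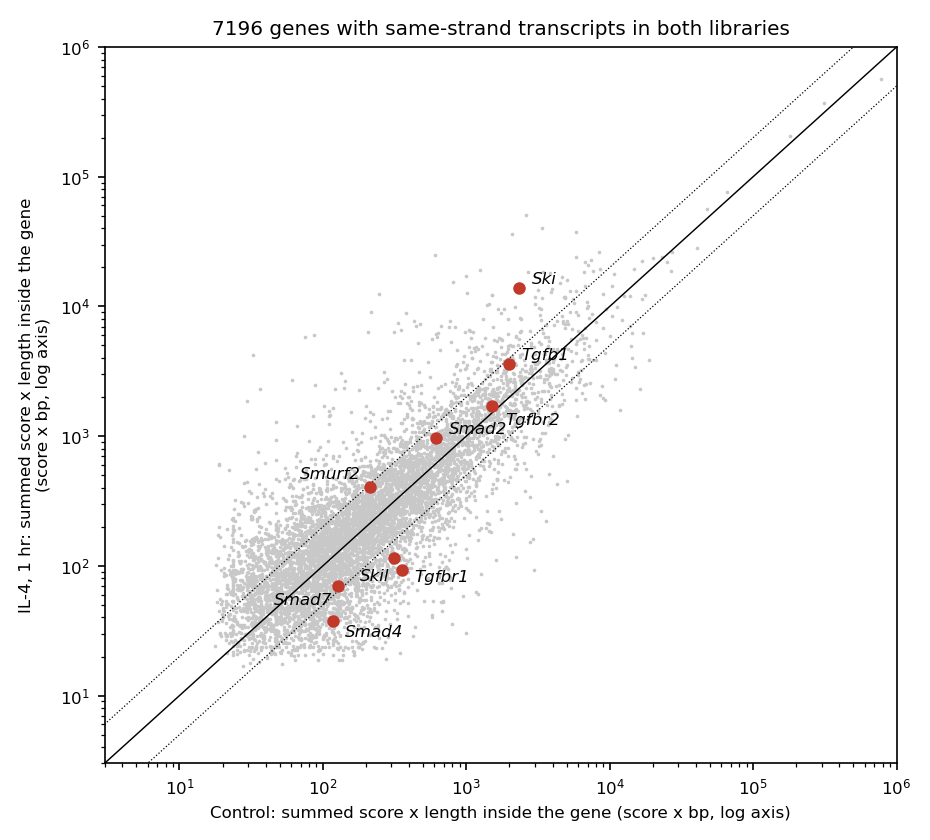
Summed score times length of same-strand transcripts inside 7196 genes, control on the horizontal and IL-4 on the vertical log axis, with the members with a value in both libraries in red. The solid line marks equal values and the dotted lines a 2-fold difference. Ski lies above the upper dotted line, and Smad4, Tgfbr1 and Skil lie below the lower one.

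Summed over the 10 members, same-strand transcripts inside the genes numbered 109 in control and 112 after IL-4, and their score times length was 8308 and 20800, a ratio of 2.50. Most of the IL-4 total came from Ski. Without Ski the control library had 74 such transcripts and the IL-4 library 58, with sums of 5963 and 6962, a ratio of 1.17. Of all transcripts that carried a member's name, 42 of 120 in control (35.0%) and 57 of 127 after IL-4 (44.9%) had no counterpart in the other library. The same share over all transcripts was not computed. These counts, and those given for single members, are thus not read as a trait of the members. Repeats were named in the annotation of 30.0% and 24.4% of the transcripts with a member's name, compared with 28.1% and 26.0% of all transcripts.

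**Figure D4:**
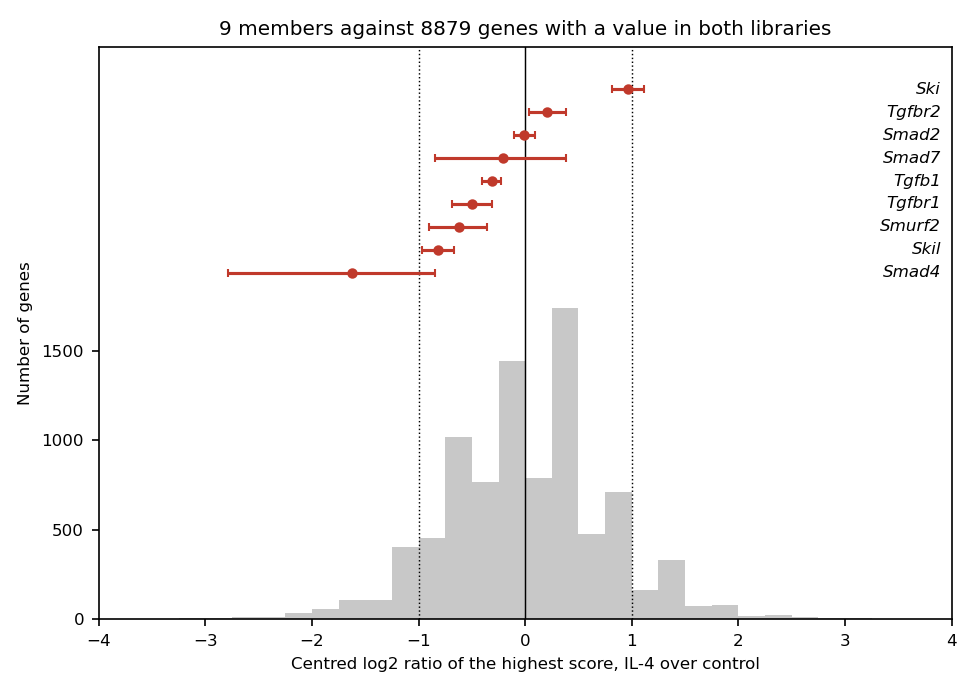
Centered log2 ratio of the highest score, IL-4 over control, for 8879 genes (gray histogram) and for the 9 members with a value in both libraries (red points, with bars for the range that rounding allows). Dotted lines mark 2-fold. Smad4 lies beyond the lower line with a bar that crosses it, and Ski lies just inside the upper line.

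The other genes of the pathway were read from a list of 104 genes in 8 roles. Of these 72 had a transcript in at least 1 library and 58 in both, while 9 were named in the control library alone and 5 in the IL-4 library alone. Over all genes, 948 of 9827 named in control (9.65%) had none after IL-4. The IL-4 library named 10106 genes, 8879 of them also named in control. By the highest score 5 of the 58 were at least 2-fold higher after IL-4 and 6 at least 2-fold lower, and 47 were neither. These shares, 8.62% higher and 10.3% lower, were near those of all genes (8.06% and 8.62%), and the median centered log2 ratio of the list was 0.038. By summed score times length 9 of 52 genes were at least 2-fold higher (17.3%, against 19.1% of all genes) and 8 at least 2-fold lower (15.4%, against 14.6%).

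Among ligands and the proteins that process them, Itgav, an integrin subunit that can release active TGF-beta from its latent form, had a highest score of 1.1 in control and 3.1 after IL-4 (centered log2 ratio 1.87). Gdf15, a distant TGF-beta family ligand, had 1.8 and 0.4 (-1.79). The genes of the other TGF-beta isoforms, Tgfb2 and Tgfb3, had no called transcript in either library. Tgfb1 was thus the isoform gene with called transcripts.

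Among receptors the extremes were Bmpr1b (0.3 and 0.7, 1.60), a BMP type I receptor whose named transcripts all lay outside the gene or on its other strand, and Acvr1b (0.7 and 0.4, -0.43), an activin type I receptor. The sums of Acvr1b were higher after IL-4, 60.8 and 118. Of the other SMADs, Smad5, which acts in BMP signaling, had 0.5 in control and 0.4 after IL-4 (0.057), and it was the only one to reach the median gene value.

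The adaptor Dab2, an endocytic protein that binds TGF-beta receptors and SMADs, had the highest centered log2 ratio of the named pathway genes, 2.24. Its highest score was 1.6 before and 5.8 after treatment, and its summed score times length was 2068 and 35910, or 17.4-fold. Hgs, an endosomal adaptor, had 0.6 and 0.4 (-0.21), but none of its transcripts lay inside the gene on its strand. Dab2 thus exceeded Ski on both measures.

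All 14 genes for ubiquitin ligases, deubiquitinases and phosphatases had a value in both libraries, with a median centered log2 ratio of -0.30. Wwp1, a HECT-type ligase related to Smurf2, had a highest score of 3.8 in control and 1.0 after IL-4 (-1.55), with sums of 6028 and 3136. Usp9x, a deubiquitinase, had 1.9 and 2.0 (0.45), while its sums had the other direction (1723 and 1137). By the highest score none of the 14 was at least 2-fold higher, against 8.06% of all genes, and 2 (14.3%) were at least 2-fold lower, against 8.62%. By the sum 1 was at least 2-fold higher (7.14%, against 19.1% of all genes) and 1 at least 2-fold lower (7.14%, against 14.6%).

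Among SMAD nuclear partners, Tgif1, a homeobox co-repressor, had 16 named transcripts in control and 7 after IL-4 with a highest score of 1.1 and 0.3 (-1.50). Only 4 in control and 3 after IL-4 lay inside Tgif1 on its strand, with sums of 673 and 210. Ncor1, a nuclear co-repressor, had 0.5 and 0.6 (0.64). In the SMAD-independent branch the extremes were the kinase Rock1 (0.3 and 0.5, 1.12) and Tab1, a partner of the kinase TAK1 (0.5 and 0.2, -0.94). The sums of Rock1 were 570 and 523, slightly lower after IL-4.

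Of 16 known target genes 7 had a value in both libraries. Cdkn1a, the cell cycle inhibitor p21, had a highest score of 1.0 in control and 2.3 after IL-4 (1.58), and its summed score times length was 759 and 6880, or 9.06-fold. Snai1, a transcription factor of epithelial-mesenchymal transition, had 0.9 and 0.3 (-1.21), but none of its transcripts lay inside the gene on its strand. Of the 7 targets 1 was at least 2-fold higher, 1 at least 2-fold lower and 5 neither, against 8.06% and 8.62% of all genes. A further 3 targets had a value in control alone, 2 after IL-4 alone and 4 in neither library. Of all genes named in control, 9.65% had none after IL-4.

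**Figure D5:**
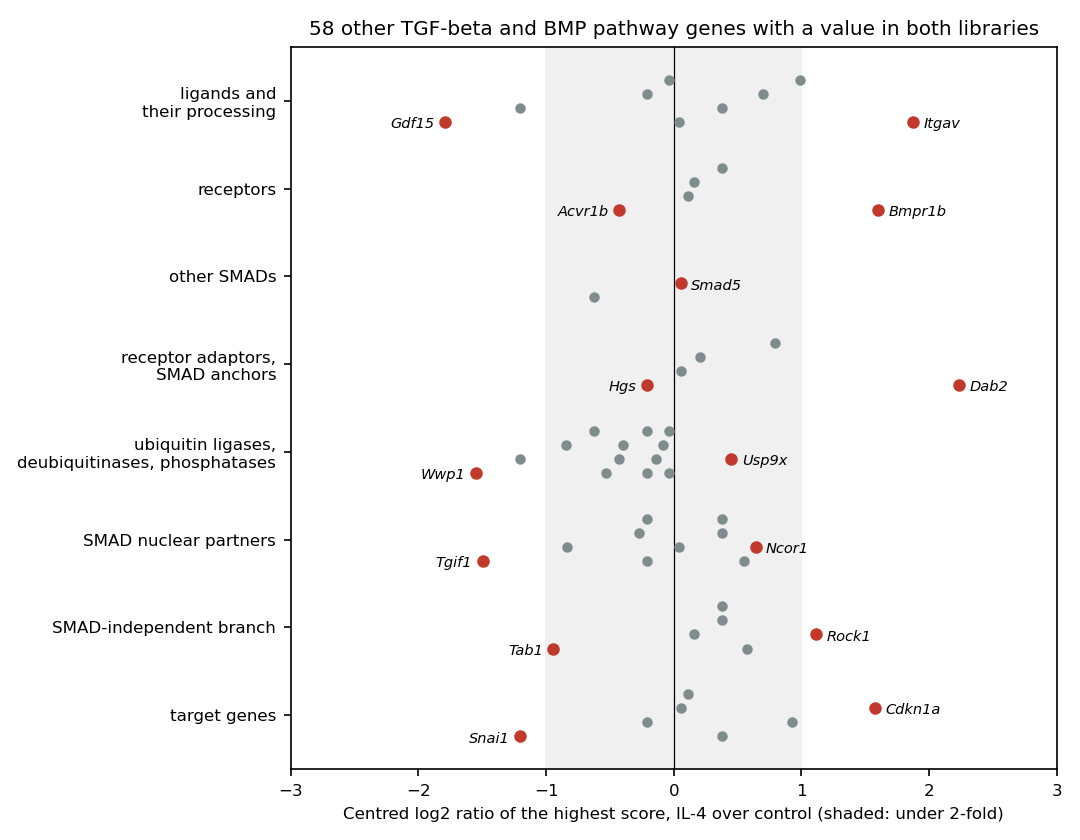
Centered log2 ratio of the highest score, IL-4 over control, for the 58 further pathway genes with a value in both libraries, by role, with the genes named in the text in red and the range under 2-fold shaded. Dab2 lies farthest to the right at 2.24 and Gdf15 farthest to the left at -1.79, and 47 of the 58 lie in the shaded range.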

How the data were processed

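GRO-seq data of 2 mouse BMDM libraries were analysed, 1 control and 1 IL-4. Per the submitters' processing notes, the reads were processed with BWA 0.7.10, SAMtools 0.1.19 and HOMER 4.2 on mm10 (GRCm38). The authors removed regions of the ENCODE artifact list, called transcripts with HOMER in GRO-seq mode for each library, and deposited a peak score per transcript with 1 decimal. Whether this score was scaled to library size, and the sequencing depth, are not given in the sources used here, so no interval that needs a depth was computed.

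From these scores, gene values, centered log2 ratios with their rounding range, and the summed score times length of same-strand transcripts inside the gene were computed with Python 3.11.15, pandas 2.3.3 and numpy 2.4.6, and plotted with matplotlib 3.10.9. Gene positions came from GENCODE M21, which shares the build. Scripts were tested on simulated data. Groups came from the treatment label. With 1 library per group no test was possible. Centered ratios of at least 2-fold were counted, and transcripts on 1 strand were matched, to genes or between libraries, when they shared at least 1 bp. Old gene symbols in the files were matched through RefSeq synonyms. The 10 members were all named, and from each of 8 role groups of a list of 104 pathway genes the genes with the highest and lowest centered ratio that reached the median gene value of a library, plus any list gene with at least 5 transcripts in 1 library and none in the other, which none met. Tgfb2 and Tgfb3 were named outside this rule after their values were seen, as were the 6 genes listed beside Smad3. Members and lists were chosen with earlier results of these data known. Alternatives were other gene values, filters and centering, and the totals without Ski.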

Additional observations from a re-analysis of the deposited data

How the results depend on the processing

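The count of members at least 2-fold lower by the highest score (1 of 9) was 3 with the sum of the scores, 3 with the sum of score times length, 3 without centering, 2 with missing genes set to 0.1 and 0 with scores of at least 0.2. The count at least 2-fold higher (0 of 9) was 1 with the sum of the scores, 1 with the sum of score times length, 1 with same-strand overlap and 2 with the transcript nearest the TSS. The share of all genes at 2-fold was not computed under these alternatives. Their counts are therefore not read as a trait of the members. The median centered log2 ratio (-0.31) was 0.029 with the sum of score times length, 0.0 with the transcript nearest the TSS and -0.69 without centering. The ratio of same-strand transcripts inside the members (1.03) reversed to 0.933 with scores of at least 0.2 and to 0.784 without Ski, and the ratio of the summed score times length (2.50) was 1.17 without Ski. Leaving out Ski was added after seeing the data. The cause was not tested.

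Over 8 alternatives the centered log2 ratio of Ski stayed above 0 (0.58 to 2.42) and that of Tgfbr1 below 0 (-1.84 to -0.42). The direction depended on the measure for Tgfb1 (-3.17 to 0.84), Tgfbr2 (-0.38 to 2.58), Smad2 (-0.39 to 0.91), Smurf2 (-1.0 to 0.64) and Smad7 (-1.52 to 0.41, at least 2-fold lower in 2 of 8). Skil (-1.19 to 0.0) and, in 6 alternatives, Smad4 (-2.52 to 0.0) were never above 0. No paired analysis was possible because each group had 1 library, and none could be left out. The score's single decimal limits the low members most, above all Smad4 and Smad7.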
